A study of Mus musculus with 4 samples.

Results

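The nuclear genes of the mitochondrial respiratory chain were examined in an m6A-seq dataset from mouse c-Kit+ cells. The genes were taken by name, as every protein-coding gene on an autosome in the GENCODE M21 annotation whose symbol starts with Ndufa, Ndufb, Ndufc, Ndufs, Ndufv, Sdh, Uqcr, Cox4, Cox5, Cox6, Cox7, Cox8 or Atp5. This gave 95 gene entries with 94 symbols, of 20807 autosomal protein-coding genes, because Atp5o is listed both as the usual gene and as a long read-through gene that shares exons with it. The prefixes also take genes that are not subunits, namely the assembly factors Ndufaf1 to Ndufaf8 and Sdhaf1 to Sdhaf4, the supercomplex factor Cox7a2l, the ATP synthase coupling factor Atp5s and isoforms that other tissues use.

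According to the labels, the mice were C57BL/6 and the material was foetal liver, from which cells bearing Kit, a receptor of blood stem and progenitor cells, had been enriched on magnetic beads. The study's methods describe them as Ythdf2CTL c-Kit-enriched cells, that is, cells of Ythdf2 fl/fl mice without a Cre, in which exon 2 of Ythdf2 lies between loxP sites and GFP follows the start codon, so that the m6A reader is made as a GFP-YTHDF2 fusion. All samples share this genotype, and there is no second condition. The series has 4 samples, m6A IP replicates 1 and 2 (total RNA in the labels) and input replicates 1 and 2 (polyA RNA). Peak lists of the 2 IP replicates were analysed, and input reads were not analysed here.

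The respiratory chain consists of complexes I to IV of the inner mitochondrial membrane, which pass electrons from NADH and succinate to oxygen, and of complex V, the ATP synthase. Complexes I, III and IV pump protons, and complex V uses the proton gradient to make ATP. A few catalytic subunits are encoded in mitochondrial DNA, and all others are nuclear genes, most of them with short mRNAs. N6-methyladenosine (m6A) is placed on mRNA in the nucleus within a short consensus called DRACH (where D stands for any base but C, R for a purine and H for any base but G), of which GGAC is the best known form, mainly near stop codons and in long exons. YTHDF2 binds m6A in the cytoplasm and promotes decay of the mRNA.

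The share of respiratory chain genes with an m6A peak was close to that of all genes in each replicate, and lower where a peak in both replicates was asked for. A gene was counted when the summit of a peak, its highest point, lay in one of its exons. In replicate 1, 32 of the 95 genes had an exonic summit (33.7%, 95% exact interval 24.3 to 44.1), against 35.5% of all autosomal protein-coding genes. In replicate 2, 29 genes had one (30.5%, 21.5 to 40.8), against 34.5%. Both replicates had a summit in 23 genes (24.2%, 16.0 to 34.1), against 31.9%, and at least 1 replicate in 38 genes (40.0%, 30.1 to 50.6), against 38.1%. The other 57 entries had no exonic summit in either list. The intervals cover counting error only, each of them includes the share of all genes, and none of these shares was tested. All genes here includes genes that these cells may not express, since no expression level of the same cells was used. A gene without a peak can lack m6A or lack the reads to show it.

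Of the 23 genes with an exonic summit in both replicates, 12 were subunits of complex I and 7 were assembly factors. The 12 were 35.3% of 34 complex I subunit genes, a share near the 31.9% of all autosomal protein-coding genes, and a further 6 had a summit in 1 replicate. They comprised 2 of the 7 core subunits, Ndufs3 and Ndufv2, and 10 of the 27 accessory subunits, Ndufa2, Ndufa7, Ndufa13, Ndufab1, Ndufb2, Ndufb4, Ndufb7, Ndufc2, Ndufs5 and Ndufv3. None of the 4 subunits of complex II (succinate dehydrogenase) had an exonic summit. In complex III (cytochrome bc1), Uqcr10 had a summit in both replicates (12.5% of 8 genes) and 3 genes in 1 replicate. In complex IV (cytochrome c oxidase), Cox6b2 and Cox7a2l had a summit in both (10.5% of 19 genes), and neither is a constitutive subunit of the enzyme. In complex V, Atp5d alone did (5.56% of 18 entries).

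Assembly factors are proteins that build a complex without staying in it. Of the 12 in this set, 7 had a summit in both replicates (58.3%), namely Ndufaf1, Ndufaf4, Ndufaf7 and Ndufaf8 for complex I and Sdhaf1, Sdhaf2 and Sdhaf3 for complex II. Of the other 83 entries, 16 did (19.3%), and of all autosomal protein-coding genes 31.9%. Assembly factor transcripts were longer, with a median of 1308 nt against 763 nt, and their longest exon had a median of 503 nt against 300 nt. Of all genes with transcripts from 1000 nt to below 2000 nt, 21.2% had a summit in both replicates, and of those of 2000 nt or more 40.4%. Among the 7 assembly factors, Ndufaf1 and Ndufaf7 were in the first of these classes and Ndufaf4, Sdhaf1 and Sdhaf3 in the second. Ndufaf8 and Sdhaf2 were shorter. The part of length in the share of assembly factors was not tested.

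**Figure D1:**
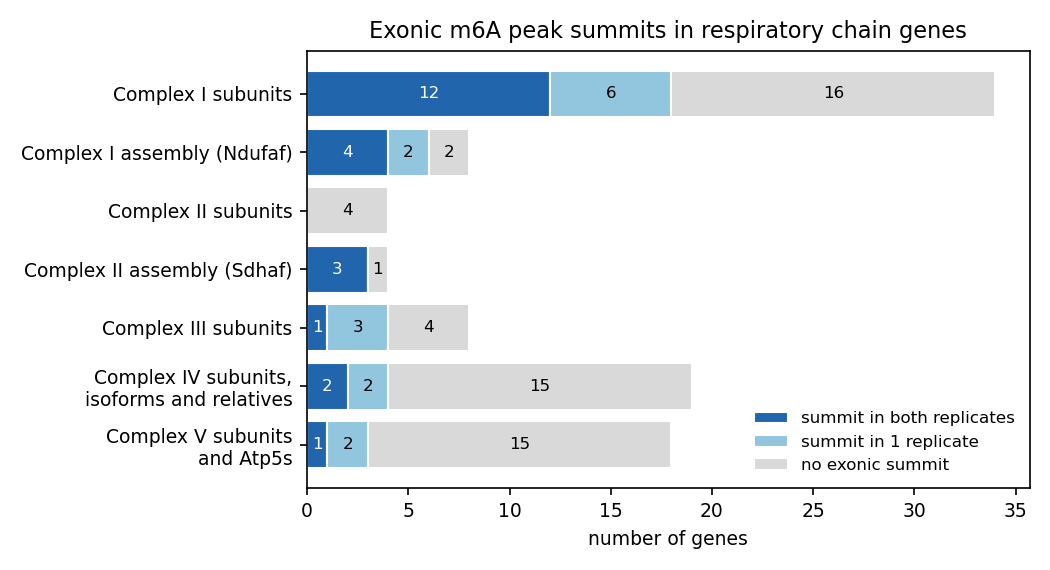
Number of genes (x axis) in each complex or assembly group (y axis), divided by whether an exonic summit was found in both replicates, in 1 replicate or in neither. Complex I had 12 of 34 genes with a summit in both replicates, complex II none of 4, and complex V 1 of 18.

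The genes with no exonic summit included core and constitutive subunits of every complex. In complex I they were Ndufs1, Ndufs7 and Ndufv1 among the core subunits and Ndufa3, Ndufa5, Ndufa6, Ndufa9, Ndufa10, Ndufa11, Ndufa12, Ndufb3, Ndufb8, Ndufb9, Ndufb10, Ndufc1 and Ndufs6 among the accessory ones, together with the assembly factors Ndufaf2 and Ndufaf3. In complex II they were Sdha, Sdhb, Sdhc and Sdhd, together with Sdhaf4. In complex III they were Uqcrc1, Uqcrh, Uqcrq and Uqcr11. In complex IV they were Cox4i1, Cox5a, Cox5b, Cox6b1, Cox6c, Cox7a2, Cox7c and Ndufa4, and the tissue isoforms and relatives Cox4i2, Cox6a2, Cox7a1, Cox7b2, Cox8b, Cox8c and Ndufa4l2. In complex V they were Atp5a1, Atp5b, Atp5c1, Atp5e, Atp5g1, Atp5g2, Atp5g3, Atp5h, Atp5j2, Atp5k, Atp5l, Atp5mpl, both entries of Atp5o, and Atp5s.

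The sequences under the shared peaks are shown first for genes with GGAC near both summits, and then for genes with another DRACH there. GGAC was taken where it was present, also where another DRACH lay closer to the summits, as in Ndufaf1 and Ndufs5. Of 20 genes with a shared peak on their chosen transcript whose sequence was read, 14 had a motif within 50 nt of both summits. It was GGAC in 5 genes and another DRACH in 9. For Ndufaf4, which had shared peaks at its start codon and in exon 3, only that in exon 3 was read for this count. At its start codon peak the nearest DRACH lay at 2 nt and −8 nt from the summits. The sequences are the sense strand of the GRCm38 reference and the capitals mark the motif. Those with GGAC, apart from Ndufa7, whose GGAC spans an exon junction, were as follows.
Ndufaf1, coding sequence of exon 2, chr2:119660379-119660406, minus strand: gagggcttacaaGGACatgaccacaaag
Ndufs5, coding sequence of exon 1, chr4:123716023-123716050, minus strand: gggcatcagcctGGACcggcactttatg
Sdhaf3, coding sequence of exon 2, chr6:7038874-7038901, plus strand: gcaacaagctgaGGACagcagacaaagc
Cox7a2l, 3′ UTR in exon 4, chr17:83502279-83502306, minus strand: ctcagggcctcgGGACtcaggcggtgtc

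In 6 further genes a DRACH other than GGAC lay within 20 nt of the summits of both replicates at the shared peak that was read.
Ndufv3, coding sequence of exon 3, chr17:31527481-31527509, plus strand: atttgtcaagaaAGACTttggtagcgttt
Ndufv2, coding sequence of exon 3, chr17:66089457-66089485, minus strand: tactcctgagaaTAACCcagatactccat
Ndufb7, 5′ UTR in exon 1, chr8:83566769-83566797, plus strand: gtgggagcgaggTGACCccggctactaaa
Ndufc2, 5′ UTR in exon 1, chr7:97400151-97400179, plus strand: ggagtcgaggtcAAACCtctcgtggaacc
Ndufab1, 3′ UTR in exon 5, chr7:122087297-122087325, minus strand: gttggaaatcaaAGACCagagagacggta
Ndufb2, 3′ UTR in exon 4, chr6:39602993-39603021, plus strand: aacagtcactttAAACCaaagatgcaggt
In Ndufv3 the A of the motif lay 0 nt from the summit of replicate 1 and 1 nt from that of replicate 2. In Ndufab1 it lay 2 nt and 0 nt away. A match describes the letters near a summit and does not show which base is methylated.

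Among peaks with an exonic summit in both replicates, those of Ndufb4 and Ndufb7, accessory subunits of complex I, had the highest fold enrichments. The fold enrichment of a peak is what MACS2 gave as IP pileup over local background at its summit, and q is the p-value of MACS2 adjusted over the list. Ndufb4, a subunit of the membrane arm, had a fold enrichment of 9.56 in replicate 1 (−log10 q 41.2) and 12.8 in replicate 2 (51.9). The peak lay at chr16:37654268-37654467 in replicate 1, in exon 1, with the summits 22 nt and 15 nt after the first base of the start codon. Ndufb7, of the same arm, had a fold enrichment of 7.49 and 8.28 (−log10 q 42.7 and 43.7). Its peak lay at chr8:83566648-83566859, and the summits were in the 5′ UTR, at −48 nt and −51 nt from the start codon. In both genes the summits of the 2 libraries were 7 bp or less apart.

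Ndufa13, an accessory subunit also known as GRIM-19, had fold enrichments of 6.12 and 5.06 in its long first exon (−log10 q 34.0 and 27.5). The peak was wide, at 1095 bp and 1480 bp, and reached beyond the 5′ end of the gene into an exon of Tssk6, and in replicate 2 also of Yjefn3. Since the lists carry no strand, the gene that the reads came from cannot be settled from them. Ndufv3, a subunit of the NADH-binding module, had fold enrichments of 5.63 and 4.92 (−log10 q 39.3 and 28.8). Its peak, chr17:31527160-31527780, lay inside a coding exon of 1092 nt, the longest internal exon of the set, and the summits were 1 bp apart.

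The remaining accessory subunits had lower fold enrichments, and their IP reads at the summit ranged widely. Ndufs5, at the start codon, had 3.40 and 3.92 (139 and 135 IP reads at the summit). Ndufc2, with the summit at −31 nt from the start codon in each replicate, had 3.47 and 3.11 (148 and 146 reads). Ndufa2, on chromosome 18, with the peak in its last exon, had 3.02 and 2.84 (176 and 166 reads). These subunits belong to different parts of the complex, and the log2 difference between replicates was largest for Ndufs5, at 0.207. Ndufb2, which has a 3′ UTR of 4012 nt, had its peak at the far end of that UTR, with 4.03 and 3.95 (32 reads in each replicate). Ndufab1, the mitochondrial acyl carrier protein, had its peak 1036 nt and 1038 nt after the stop codon in a last exon of 2936 nt, with 3.29 and 3.89 (42 and 48 reads). Ndufa7 had 2.37 and 2.64 (82 and 71 reads) in exon 2, with the summit at the same base in both.

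Of the core subunits of complex I, Ndufv2, which carries an iron-sulfur cluster of the NADH-binding module, had fold enrichments of 2.37 and 2.37 (−log10 q 9.12 and 8.47). Ndufs3, a subunit of the hydrophilic arm, had 4.29 and 3.38 (−log10 q 11.7 and 5.45). The Ndufs3 summits were 164 bp apart, the largest distance among the shared peaks, and that of replicate 1 also lay in an exon of the neighbouring gene Kbtbd4.

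Ndufaf1, an assembly factor that acts on an early membrane arm intermediate, had a fold enrichment of 4.39 in replicate 1 (−log10 q 44.4) and 3.05 in replicate 2 (24.9), in an exon of 658 nt. Among exonic summits of the 95 entries, its −log10 q was the highest in replicate 1. Ndufaf4 had several peaks. The peak at its start codon had 2.40 and 2.30, the peak in the coding part of exon 3 had 3 and 3.39, and replicate 1 had a further peak of 1.94 in the 3′ UTR, 1205 nt after the stop codon. Ndufaf7, a mitochondrial protein methyltransferase, had 2.57 and 3.09 upstream of the stop codon. Ndufaf8 had 3.40 and 4.65 at its start codon, with 44 and 38 reads.

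Of the 4 assembly factors of succinate dehydrogenase, all but Sdhaf4 had an exonic summit in both replicates, and none of its 4 subunits had one, although a peak of replicate 2 touched an exon of Sdhb. Sdhaf3, which helps to put iron-sulfur clusters into Sdhb, had fold enrichments of 4.01 and 2.94 upstream of its stop codon. Sdhaf1, of the same function, had 2.98 and 3.03 in the 3′ UTR of its single exon, and both summits also lay in an exon of E130208F15Rik, so the gene is uncertain. Sdhaf2, which is needed to attach FAD to Sdha, had 2.90 and 2.91 in an exon that is not part of the transcript chosen for it.

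In the other complexes, Cox7a2l, known as a supercomplex factor, had fold enrichments of 2.90 and 2.62 in its 3′ UTR. Its summits lay 285 nt and 287 nt after the stop codon, with 182 and 175 reads. Cox6b2, known as the testis isoform of a complex IV subunit, had 5.50 and 3.84 (−log10 q 44.3 and 25.8). Its summits lay in an exon of another annotated transcript and in an intron of the chosen one. Atp5d, the delta subunit of the ATP synthase stalk, had 4.07 and 3.81 in the 5′ UTR, at −65 nt and −55 nt from the start codon. Uqcr10, a small subunit of complex III, had a shared peak in its last exon with 2.50 and 1.76, and replicate 1 had a further peak of 4.67 in exon 1 without a partner in replicate 2.

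**Figure D2:**
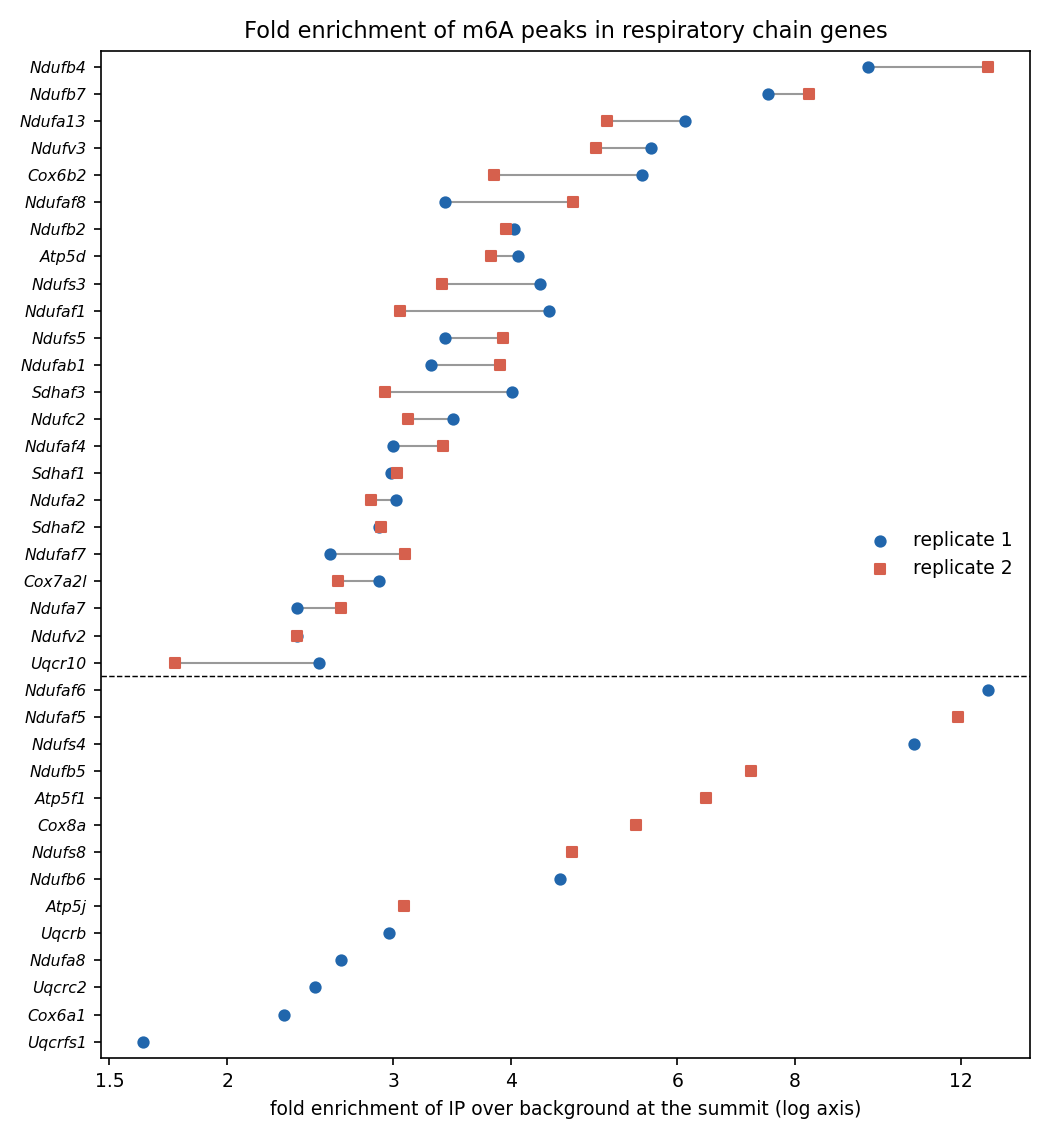
Fold enrichment of IP over background at the summit (x axis, log scale) for genes with an exonic summit, in replicate 1 (circles) and replicate 2 (squares). Above the dashed line are the 23 genes with a summit in both replicates, with the overlapping pair of highest −log10 q joined by a line. Below it are 14 genes with a summit in 1 replicate, of which Ndufaf6 (12.8) and Ndufaf5 (11.9) are highest.

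Peaks of these genes that were called in both lists differed little in fold enrichment between replicates. There were 24 overlapping pairs in the 23 genes, with a median distance of 4.5 bp between summits. The fold enrichment of all 24 pairs was within 2-fold, and its log2 difference had an SD of 0.284. It was higher in replicate 1 for 14 pairs and in replicate 2 for 10.

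In the 15 other genes the peak was called in 1 library. Replicate 1 alone had summits in genes that included Ndufaf6 (fold enrichment 12.8, 17 reads), Ndufs4 (10.7, 19 reads), Ndufb6 (4.51, 110 reads), Uqcrb (2.97, 142 reads), Ndufa8 (2.64, 50 reads), Uqcrc2 (2.48, 75 reads), Cox6a1 (2.30, 180 reads) and Uqcrfs1 (1.63, 136 reads). Uqcrfs1 is the Rieske iron-sulfur protein of complex III. Replicate 2 alone had summits in Ndufaf5 (11.9, 34 reads), Ndufb5 (7.19, 26 reads), Atp5f1 (6.44, 72 reads), Cox8a (5.43, 56 reads), Ndufs8 (4.64, 37 reads) and Atp5j (3.08, 41 reads). The summit of Ndufb5 was also in an exon of Mrpl47, and that of Atp5f1 in an exon of Wdr77. Atp5f1 and Atp5j encode parts of the peripheral stalk of the ATP synthase.

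Peaks in 1 library were not all weak. Of the 11 peaks of replicate 1 that overlapped no peak of replicate 2, 5 had a −log10 q of at least 19, with Ndufb6 at 34.1, Uqcrb at 25 and Uqcr10 at 23.7. Of the 6 peaks of replicate 2 without a partner, 3 did, with Atp5f1 at 30.2. The nearest peak of the other replicate was 9161 bp away for Ndufb6 and 7444 bp for Atp5f1. The peaks without a partner had a median −log10 q of 16.7 and 16.6, against 26.6 and 23.3 for the shared peaks of these genes. Of the respiratory chain peaks, 68.6% of replicate 1 (24 of 35, exact interval 50.7 to 83.1) and 80.0% of replicate 2 (24 of 30, 61.4 to 92.3) overlapped a peak of the other list, against 85.2% and 87.5% of all peaks with summits in autosomal protein-coding exons.

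The respiratory chain peaks had many reads over a high background. The number of IP reads at a summit was computed from the fold enrichment and p-value together, and had a median of 85 in both replicates, against 71 and 69 for all peaks in autosomal protein-coding exons. The background at the summit had a median of 29.7 and 23.0, against 15.7 and 14.0, in units of the MACS2 pileup. The median fold enrichment was 3.40 (range 1.63 to 12.8) and 3.60 (1.76 to 12.8), against 4.11 and 4.30 for all such peaks. At the low end of the background were Ndufaf6 (0.41) and Ndufs4 (0.874), both found in replicate 1 only. At the high end in replicate 1 were Uqcrfs1 (83.0) and Cox6a1 (77.7). A fold enrichment of at least 4 in both replicates was reached by 4 genes, Ndufa13, Ndufb4, Ndufb7 and Ndufv3. These were 4.21% of the respiratory chain genes, against 17.4% of all autosomal protein-coding genes.

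The peaks were also narrow. Their median width was 227 bp and 232 bp, against 407 bp and 421 bp for all peaks in autosomal protein-coding exons. In replicate 1, 65.7% of them reached out of the exons of their gene, against 50.6%, and in replicate 2, 70.0% against 49.4%.

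Respiratory chain transcripts were short, and peaks were more often found in the longer ones. The chosen transcripts had a median length of 817 nt (quartiles 600 to 1469) against 2584 nt for all autosomal protein-coding genes, and a median longest exon of 304 nt against 1206 nt. The shortest was that of Ndufa3 (351 nt) and the longest that of Atp5g1 (4715 nt), and neither had an exonic summit. Genes with a summit in both replicates had a median transcript of 1129 nt, those with a summit in 1 replicate 1079 nt, and those without 731 nt. The median number of exons was 4 in the first and the last of these groups and 5 in the other. Among all genes the same direction held, with 3341 nt for genes with a summit in both replicates and 2200 nt for those with none.

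Within each class of transcript length, the share of respiratory chain genes with a summit in both replicates was above that of all genes. With a summit in at least 1 replicate this held below 2000 nt, and from 2000 nt the share was 45.5% against 46.5%. From 500 nt to below 1000 nt, where 48.4% of these genes lie but 9.87% of all genes, 7 of 46 had a summit in both replicates (15.2%, against 9.79% of all genes of that length). From 1000 nt to below 2000 nt it was 8 of 28 (28.6%, against 21.2%). From 2000 nt it was 5 of 11 (45.5%, against 40.4%). Below 500 nt it was 3 of 10 (30%, against 5.71% of 473 genes), namely Cox6b2, Ndufaf8 and Uqcr10. By longest exon, it was 1 of 13 below 200 nt (7.69%, against 3.42% of all genes) and 8 of 45 from 200 nt (17.8%, against 10.3%). From 400 nt it was 8 of 26 (30.8%, against 26%) and from 1000 nt 6 of 11 (54.5%, against 40.6%). No class was tested, each holds few genes, and genes of all expression levels are in the comparison.

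**Figure D3:**
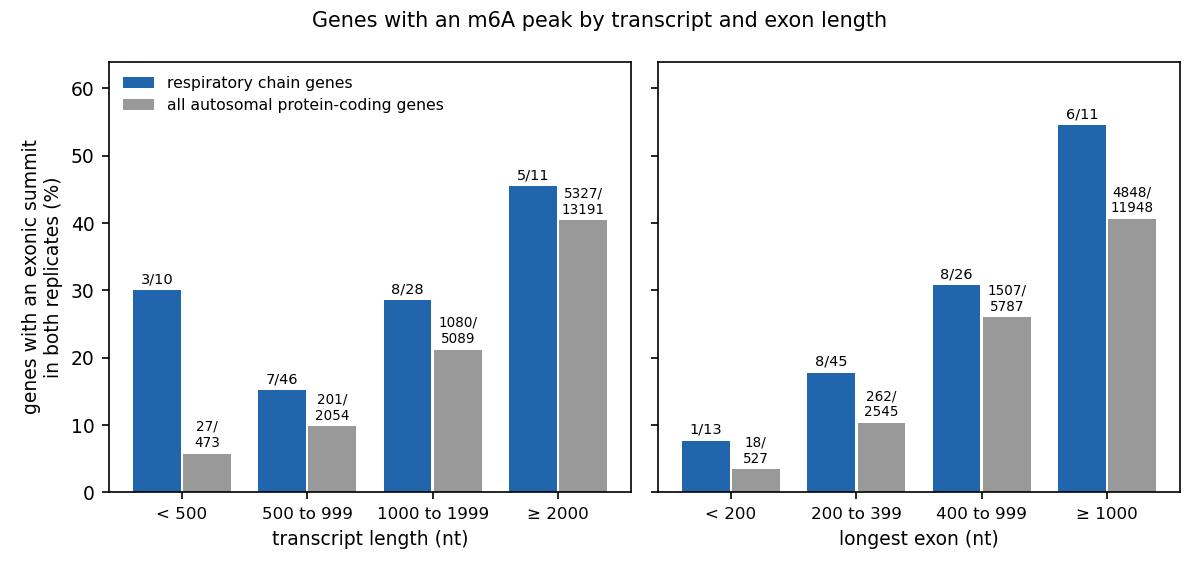
Share of genes with an exonic summit in both replicates (y axis, %) by transcript length and by longest exon (x axes, nt), for respiratory chain genes and for all autosomal protein-coding genes. Fractions give the number of genes. The share is 15.2% against 9.79% from 500 nt to below 1000 nt and 45.5% against 40.4% from 2000 nt.

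The largest part of the summits lay near the start codon. On the chosen transcripts, 33 summits of replicate 1 and 27 of replicate 2 could be placed. Those that also lay in an exon of another gene, in Ndufs3, Sdhaf1, Ndufb5 and Atp5f1, were kept. For all genes such summits were left out. Within 200 nt of the start codon, and not of the stop codon, lay 56.9% ± 3.33 (mean ± SD, n = 2 replicates) of the placed summits, against 14.8% ± 0.459 of the summits of all genes. These windows take up 19.1% of the bases of the same respiratory chain transcripts and 8.96% of those of all genes with a placed summit. Within 200 nt of the stop codon lay 21% ± 8.81, against 30.4% ± 0.649, and the windows held 25.4% and 10.2% of bases. The share at the stop codon was 27.3% in replicate 1 and 14.8% in replicate 2, 9 of 33 and 4 of 27 summits. None of the differences in position from all genes was tested.

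The first exon held 44.9% ± 0.714 of the summits, against 15.6% ± 0.514, and the last exon 36.4% ± 4.29, against 61.3% ± 0.310. Within 150 nt of the 5′ end of the transcript lay 31.5% ± 2.62 of them, against 8.83% ± 0.293, where 10.5% and 3.91% of bases are. In replicate 1 these included summits of Ndufa7, Ndufa8, Ndufaf4, Ndufaf6, Ndufaf8, Ndufb4, Ndufb6, Ndufb7, Ndufs3 and Uqcr10. Of these, Ndufa7, Ndufaf4, Ndufaf8, Ndufb4 and Ndufb7 had such a summit in replicate 2 as well.

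The short transcripts among all genes also had more of their summits at the start codon than the long ones. In a split by length chosen after the values were seen, transcripts below 1000 nt had 70.8% of summits there for respiratory chain genes (8 of 13 and 8 of 10) and 43.5% for all genes. From 1000 nt to below 2000 nt it was 66.4% and 28.3%, and from 2000 nt 15.5% and 12%. The last class rests on 7 and 6 summits. Among all genes the share near the stop codon was higher in short transcripts too, at 53.5%, 41.7% and 28.1% in the same classes. For respiratory chain genes it was 29.2%, 12.2% and 22.6%. Windows of fixed size take up more of a short transcript, and their share of bases was not computed by class. The part of window size in the trend was not tested.

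Of 21 genes with a placed summit in both replicates, 12 had it near the start codon in both, namely Atp5d, Ndufa7, Ndufa13, Ndufaf1, Ndufaf4, Ndufaf8, Ndufb4, Ndufb7, Ndufc2, Ndufs3, Ndufs5 and Ndufv2. Near the stop codon in both were Ndufa2, Ndufaf7, Sdhaf3 and Uqcr10, and in the 3′ UTR beyond it Cox7a2l, Ndufab1, Ndufb2 and Sdhaf1. All 8 of the latter groups except Sdhaf1, which has a single exon, had the summit in the last exon. Ndufv3 was the only gene with the summit elsewhere in the coding sequence in both replicates.

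**Figure D4:**
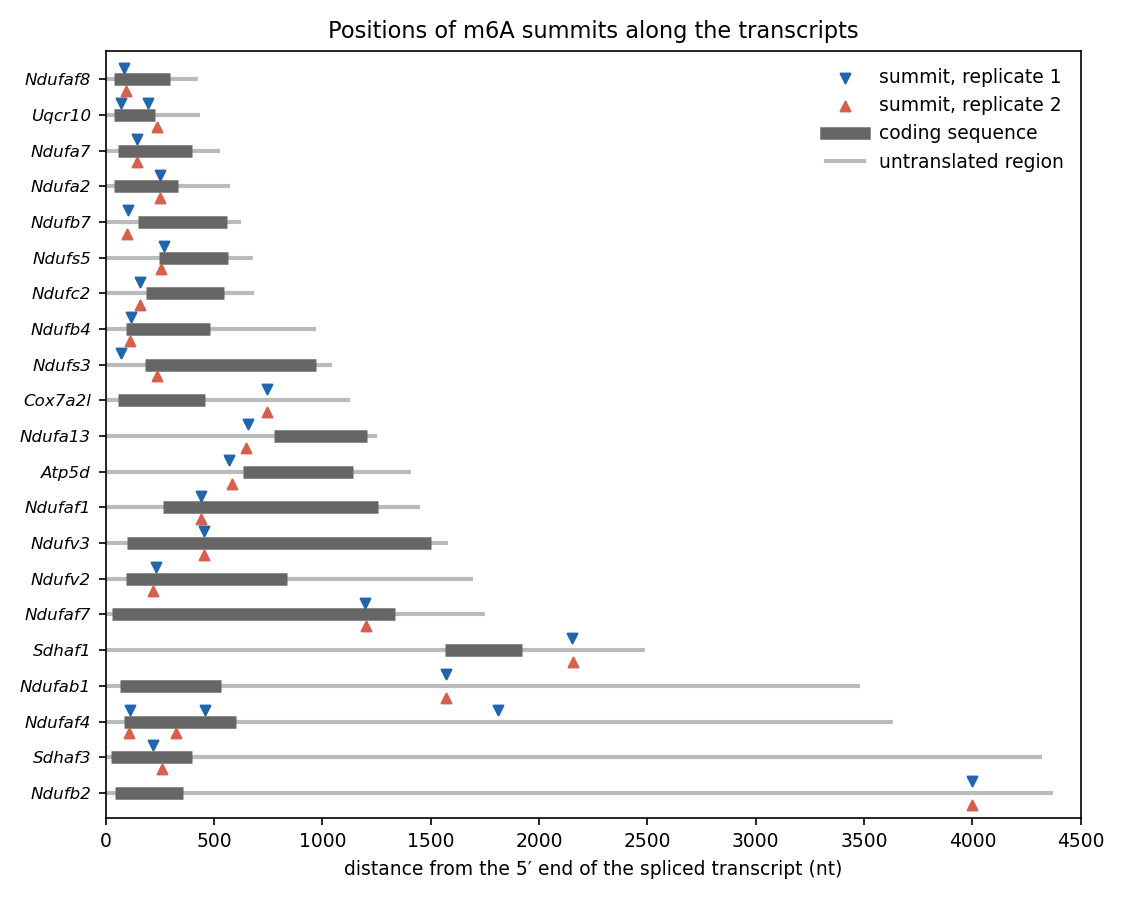
Position of summits along the spliced transcripts of the 21 genes with a placed summit in both replicates (x axis, nt from the 5′ end), with replicate 1 above and replicate 2 below each bar. Thick bars are coding sequence and thin bars untranslated regions, and genes are ordered by transcript length. Most shorter transcripts have the summit near the start codon, and Ndufb2 has it 3640 nt after the stop codon.

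GGAC lay within 50 nt of 28.5% ± 1.67 of placed summits (9 of 33 and 8 of 27), against 56.2% ± 0.0115 for all genes. Any DRACH lay within 50 nt of 79.8% ± 2.86, against 93.4% ± 0.02. Within 100 nt, GGAC was found for 53.5% ± 2.86, against 76.2% ± 0.120. Over the whole transcripts there were 3.72 GGAC per 1000 nt in respiratory chain transcripts with a placed summit, 4.25 in those without a summit and 4.22 in all genes with a placed summit. Of the 57 transcripts without a summit, 1 had no GGAC. By length, the share with GGAC was 39.2% below 1000 nt, 21.3% from 1000 nt to below 2000 nt and 22.6% from 2000 nt, against 54.7%, 56.4% and 56.2% for all genes. The GGAC shares were not tested.

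Several genes had a peak whose summit missed the exons. There were 18 such genes, of which 10 had no exonic summit and 7 of these 10 had the peak in both replicates. Such peaks were not counted separately over all genes. With any overlap of a peak with an exon, 31.6% of respiratory chain genes and 33.6% of all autosomal protein-coding genes had a peak in both replicates. With summits anywhere in the gene body it was 34.7% and 35.3%. Cox5a, a constitutive subunit of complex IV, had a peak with fold enrichments of 21 and 10.8, among the highest at any of these genes, with the summits at −50 bp and −16 bp from the annotated 5′ end of the gene and the peak reaching into exon 1. Atp5g3, one of the genes for the c-ring of the ATP synthase, had 8.71 and 4.95 (−log10 q 55.3 and 33.5), with the summit 234 bp and 239 bp after the 5′ end, beyond an exon edge. Uqcrh, the hinge protein of complex III, had 3.32 and 2.96 at an exon near its 3′ end. Cox6a1 had a second peak of this kind with 4.64 and 9.36 (−log10 q 36.0 and 63.6), and Uqcrb one with 3.52 and 3.41.

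The others included peaks with a summit in an exon of another gene, peaks in 1 replicate and a peak deep in an intron. Atp5g1 had 3.88 and 3.46 and Ndufa3 2.94 and 2.16. The summits in an intron of Ndufaf2 (2.91 and 2.71) lay in an exon of Smim15. Atp5b (3.85), Sdhb (4.58) and Uqcrc1 (6.32) had a peak touching an exon in replicate 2 only. Ndufs4, a small accessory subunit of complex I, had a peak deep in an intron in both replicates, chr13:114361090-114361708 in replicate 1, with fold enrichments of 21 and 12.7. It lies in an exon only when transcripts outside the basic set of the annotation are used. For 47 of the 95 entries no peak touched an exon and no summit lay anywhere between the ends of the gene. The same was not counted over all genes. In at least 1 replicate, a peak overlapped an exon of 47 of the 95 entries and of 40.1% of all autosomal protein-coding genes. A summit lay in the gene body of 46 entries and of 42% of all genes. The count of entries without any peak therefore does not show a lack of peaks in these genes.

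Copies of these genes were looked at because reads of an mRNA can be placed on a pseudogene. Of 13 non-coding genes named after members, 12 of them processed pseudogenes, 3 touched a peak in replicate 1 (Ndufb4c, Atp5l2-ps and Ndufb1-ps) and 1 in replicate 2 (Ndufb1-ps). Ndufb1-ps is not a processed pseudogene in the annotation but a lncRNA from a bidirectional promoter.

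Other genes of the pathway were counted from lists. None of the 13 subunits encoded in mitochondrial DNA had a peak, and neither list held any peak on that chromosome, and whether mitochondrial reads were kept is not given in the sources used here. Of 3 X-linked genes with the same prefixes, Ndufb11 had a summit in both replicates (2.99 and 2.78), and Ndufa1 and Cox7b had none. Cytochrome c1 (Cyc1) and cytochrome c (Cycs, Cyct) had none.

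Of 38 assembly factors outside the prefixes, the inhibitor of complex V included, 25 had a summit in both replicates (65.8%), against 31.9% of all autosomal protein-coding genes. The median transcript of these lists ran from 1383 nt to 2262 nt, and 40.4% of all genes of 2000 nt or more had such a summit. The part of length was not tested. Values are fold enrichments of the genes with the highest −log10 q in the lower of the 2 replicates. For complex I these were Acad9, Ecsit, Tmem126b, Foxred1 and Tmem186, 5 of 7 genes found, with Tmem126b at 5.74 and 5.88. For complex III they were Uqcc1, Uqcc3, Lyrm7 and Ttc19, 4 of 6, with Uqcc1 at 3.23 and 3.15. For complex IV they were Cox10, Cox11, Cox14, Cox15, Cox19, Sco1, Sco2, Coa3, Coa4, Coa5, Coa6, Coa7, Taco1 and Pet117, 14 of 21, with Cox11, which inserts copper (11.4 and 10.1), Cox10 (5.74 and 7.05) and Cox15 (4.42 and 4.43), which make heme A. For complex V they were Atpaf1 and that inhibitor, Atpif1, 2 of 4, with Atpif1 at 3.51 and 3.41.

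Of the lists, genes that regulate transcription of the respiratory chain had peaks most often, in 14 of 16 (87.5%), against 31.9% of all autosomal protein-coding genes and 40.4% of those of 2000 nt or more. Their median transcript was 3954 nt. The 14 were Ppargc1b, Pprc1, Nrf1, Gabpa, Gabpb1, Gabpb2, Yy1, Tfam, Tfb1m, Tfb2m, Polrmt, Mterf1a, Creb1 and Myc. Nrf1, a transcription factor of many subunit genes, had 4.16 and 5.63, the coactivator Ppargc1b 7.70 and 9.52, and Tfam, which packs mitochondrial DNA, 4.11 and 12 at its peak of highest −log10 q in each list. Ppargc1a and Esrra had no exonic summit.

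Peaks were also counted in marker genes of cell types. Of 9 blood stem and progenitor cell genes, Cd34, Gata2, Runx1, Klf1 and Spi1 had a summit in both replicates (55.6%), and Kit, Myb, Gata1 and Mpo had none in either. The share of all autosomal protein-coding genes was 31.9%, and that of the liver genes below was 33.3%. These shares were not tested and do not tell the cell type. Of 6 genes of the liver parenchyma, Apoa1 and Hnf4a had a summit in both replicates, with 42 and 54 reads for Apoa1 and 24 and 22 for Hnf4a, and Afp had 1 in replicate 1. A transcript with a peak is present, whereas one without a peak may be present and unmethylated, and the part of liver cells in the results was not tested.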

How the data were processed

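m6A-seq was analysed from the deposited peak lists of IP replicates 1 and 2. Per the labels and the study's methods, the authors aligned reads to GRCm38 with HISAT2 (version not given in the sources used here) and called peaks in each replicate separately with MACS2 2.1.1.20160309 and the nomodel option. The threshold and the control library are not given in the sources used here. The lists hold 15635 and 14872 peaks, with a smallest −log10 q of 1.31 and 1.30. The deposited fold enrichment is a ratio of IP to background at the summit, the deposited −log10 p-value and −log10 q-value are those of MACS2, and the deposited score is −log10 q multiplied by 10 and rounded down. Peaks were called along the genome, without strand, so a peak over a short exon reaches into introns, which can move a summit out of the exon. Library totals are not known from these lists.

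Summits were assigned to exons of the GENCODE M21 basic annotation on the same build, with 1 bp as the smallest overlap where overlap is used. No peak end lay beyond its chromosome (0 peaks). Positions and motifs were read on the transcript with the longest coding sequence, and for all genes only from summits in exons of 1 gene. Respiratory chain summits were kept also where they lay in exons of several genes, so the 2 sides differ in this rule. Intervals are exact Clopper-Pearson 95% intervals and cover counting error only. IP reads at a summit were the whole number that gives both the fold enrichment and the p-value under the formulas of MACS2. In 300 peaks of each replicate, 100% gave a whole number within 0.01 reads, at a pileup of 1.000 per IP read in replicate 1 and 0.952 in replicate 2. On 200 simulated peaks of each replicate, 100% were recovered. Counts and shares were described beside those of all genes and no test was made. Genes named are the members with an exonic summit, apart from an item that is not reported here, members without a summit by complex, the longest and shortest transcript, and, of the pathway lists, genes with a summit in both replicates, with values for up to 3 of each list by the lower −log10 q of the 2 replicates. The members and lists were chosen with earlier results of these data known. Alternatives were other peak thresholds, overlap rules, annotations, windows and single replicates. Python 3.11.15, scipy 1.17.1, pandas 2.3.3, pysam 0.24.0 and matplotlib 3.10.9 were used.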

Additional observations from a re-analysis of the deposited data

How the results depend on the processing

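The number of respiratory chain genes with a summit in both replicates (23) stayed within 1.5 times under every alternative except a minimum fold enrichment of 4, under which 4 genes were left, with 21 in either replicate in place of 38. It was 30 when any overlap of a peak with an exon counted (Atp5g3, Atp5s, Cox5a, Cox6a1, Ndufs8, Uqcrb and Uqcrh were added), 33 over whole gene bodies, 26 with the comprehensive annotation and 21 without summits in exons of several genes. A single replicate gave 29 to 32. The share of all autosomal protein-coding genes with a summit in both replicates (31.9%) moved by more than the SD between replicates to 33.6% with any overlap, 29.9% with a minimum −log10 q of 5, 17.4% with the minimum fold, 30% without summits in several genes, 32.6% with the comprehensive annotation, 35.3% over gene bodies and 34.5% to 35.5% in a single replicate. The share for respiratory chain genes divided by that for all genes was 0.759, and was 0.939 with any overlap, 0.985 over gene bodies and 0.242 with the minimum fold. It was 0.736 without summits in several genes, 0.81 with a minimum −log10 q of 5 and 0.839 with the comprehensive annotation. This ratio thus varied with the counting rule, and neither the lower share nor its cause was tested. The share of summits near the stop codon was 49.8% with a window of 400 nt, and ranged from 14.8% to 27.3% in a single replicate. The GGAC share was 53.5% within 100 nt. In a single replicate the GGAC share was 27.3% to 29.6% and the median fold enrichment 3.40 to 3.60. Depth limits which genes can be called, since the lists hold only peaks past the threshold.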
